A study of Homo sapiens with 6 samples.

Results

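Potassium channel genes were compared between C4-2B, a cell line of castration resistant prostate cancer, and RC4-2B, its cabazitaxel (CBZ)-resistant subclone. The genes were chosen by name alone, as the protein-coding rows of the deposited count table whose symbol is KCN, further letters and a number. This gave 95 of the 58735 genes in the table. RNAseq was available from 3 biological replicates of C4-2B and 3 of RC4-2B. RC4-2B was selected over 4 months by cycles of 72 h in CBZ followed by recovery, with the dose raised from 0.1 nM to 20 nM, and it is a single subclone of 1 parental line. What CBZ selection did and what the derivation of a single subclone over 4 months of culture did therefore cannot be told apart. No drug exposure of the cells used for RNA is named in the labels or methods. The labels give fetal bovine serum as the serum in the culture medium, and the methods for the RNA samples name charcoal-stripped serum as well.

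Potassium channels let potassium ions pass through the cell membrane, which sets the resting potential and helps to control cell volume. They belong to a few structural classes. Voltage-gated subunits (KCNA to KCND, KCNQ, KCNH) open on depolarization, calcium-activated ones (KCNMA1, KCNN) open when calcium rises, inward rectifiers (KCNJ) pass current more readily into the cell than out of it, and pore subunits of the KCNK class each carry a pair of pore loops and give leak currents. Modifier subunits (KCNF, KCNG, KCNS, KCNV) join other alpha subunits, and auxiliary subunits (KCNAB, KCNE, KCNIP, KCNMB) form no pore. In prostate cancer cells, KCNMA1, the large-conductance calcium-activated channel, is among the best studied of them.

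Most of the potassium channel genes had few or no reads in either line. Of the 95 genes, 27 had 0 counts in all 6 libraries and 51, which include those 27, had 3 counts or fewer in every library. A count of 0 still allows up to 3 counts, which is 0.170 to 0.188 CPM (counts scaled to library size) at these depths, and this limit covers counting error only. Another 13 genes rose above 3 counts somewhere but were too low to be tested, with at most 18 counts (KCNH3). The other 31 were among the 15054 genes tested with edgeR. Of these 31, 25 passed the filter on low counts in both lines, 5 (KCNJ3, KCNK6, KCNK7, KCNN1 and KCNIP2) passed through C4-2B alone and 1 (KCNH6) through RC4-2B alone. In bulk RNA, fewer cells that express a gene and less RNA per cell cannot be told apart. Strand and the counting program are not given in the sources used here, so reads of genes that overlap on opposite strands cannot be separated.

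The libraries held 15707134 to 18052517 counts. RC4-2B replicate 2 stood apart. Its log2 differences from RC4-2B replicates 1 and 3 had SDs of 0.57 and 0.49 over genes, against 0.20 between those replicates and 0.11 to 0.18 within C4-2B, and these differences moved with transcript GC content (Spearman 0.77 for replicate 1 minus replicate 2 and -0.70 for replicate 2 minus replicate 3, a description across genes). The tested channel transcripts were GC-rich, with a median of 56.9% against 48.2% for all tested genes, so values without this library and with a GC correction are given where they change a call. All 8 luminal prostate markers were tested in both lines. Their summed level was 3531 to 3645 CPM in C4-2B and 2369 to 2714 CPM in RC4-2B, and KLK3 and TMPRSS2 were called lower. The basal markers KRT5 and TP63 and the neuroendocrine markers INSM1 and NEUROD1 had 0 counts in all libraries. The remaining basal marker, KRT14, had 4, 8 and 17 counts in C4-2B against 8, 5 and 6 in RC4-2B and was not tested. Summed over their 6 genes, neuroendocrine markers were at 1.31 to 2.83 CPM in C4-2B and 0.570 to 2.06 CPM in RC4-2B. Most of this came from SYP, the only one tested, with 36, 44 and 21 counts in C4-2B against 28, 10 and 33 in RC4-2B. Its log2 fold change was -0.46 (adjusted p = 0.56, edgeR). Of 3 immune, 5 fibroblast and 3 endothelial markers, COL1A1, PDGFRB and VWF were the ones tested, and COL1A2, DCN, LUM and PECAM1 had 0 counts throughout. The summed endothelial level, nearly all from VWF, was 7.47 to 8.14 CPM in C4-2B and 3.64 to 5.07 CPM in RC4-2B, and the part of any such difference in the channel genes was not tested.

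**Figure D1:**
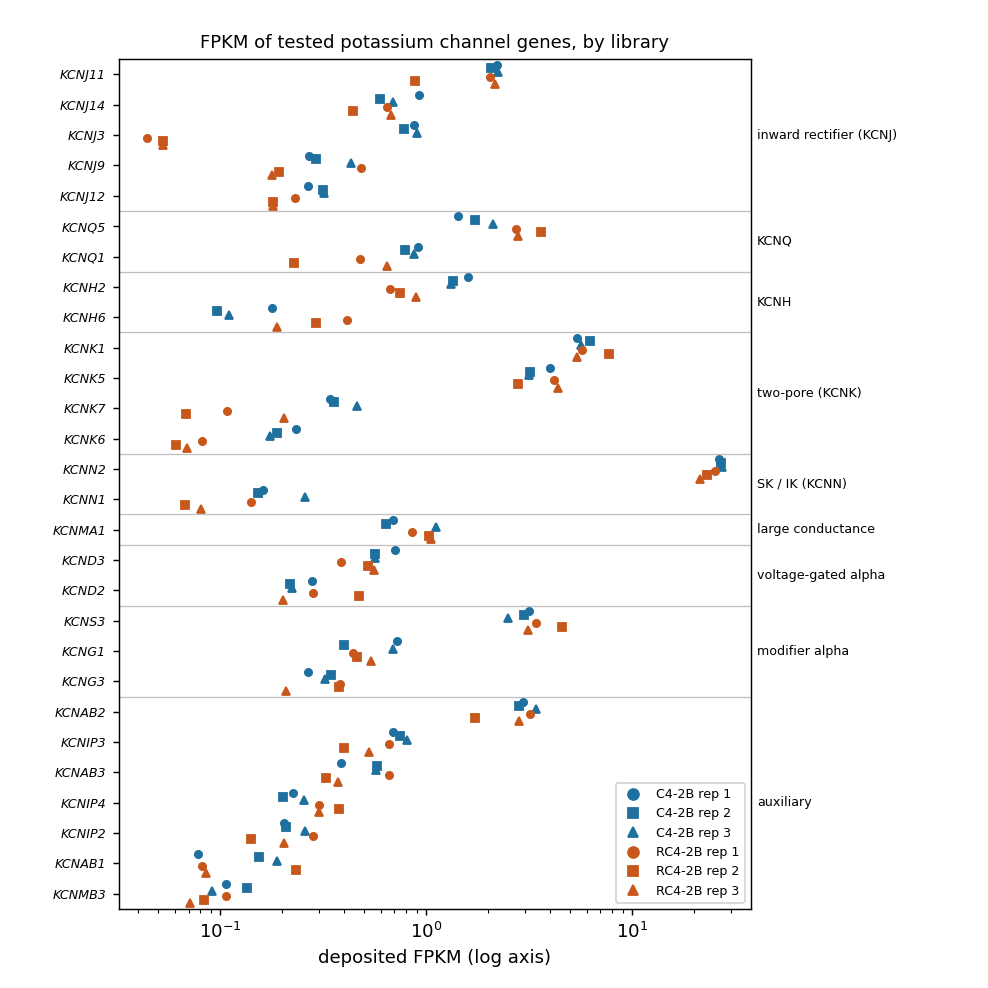
Deposited FPKM (horizontal log axis) of 28 of the 31 tested potassium channel genes, 1 point for each of the 3 C4-2B (blue) and 3 RC4-2B (orange) libraries, grouped by subfamily. KCNN2 lies farthest to the right in all 6 libraries, between 21.3 and 27.3 FPKM, and the 3 RC4-2B points of KCNJ3 lie at 0.0442 to 0.0526 FPKM, far to the left of its C4-2B points.

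One potassium channel gene, KCNJ3, differed past an adjusted p-value of 0.05 (edgeR quasi-likelihood test, Benjamini-Hochberg adjustment over all 15054 genes), and it was lower in RC4-2B. No channel gene was called higher. Over all tested genes, 1.08% were called higher and 0.903% lower, so 1 of 31 (3.23%) lower and 0 of 31 higher is close to what the whole table gave. At an unadjusted p-value under 0.05, 2 channel genes were higher and 7 lower (6.45% and 22.6%), against 12.0% and 9.42% of all genes. By DESeq2, 2 channel genes were called lower (KCNJ3 and KCNH2) and 1 higher (KCNQ5), against 2.64% lower and 3.28% higher among the 15221 genes to which it gave an adjusted p-value.

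KCNJ3 encodes GIRK1 (Kir3.1), a subunit of the inward rectifiers that G-protein beta-gamma subunits open after stimulation of inhibitory receptors. The gene (ENSG00000162989) lies on chromosome 2 from 154698299 to 154858352 on the plus strand. It had 83, 78 and 89 counts in the 3 C4-2B libraries and 4, 5 and 5 in the 3 RC4-2B libraries. Every RC4-2B library thus stood far below every C4-2B library, and each was still above the 3 counts that a count of 0 allows. KCNJ3 passed the filter on low counts through C4-2B alone, where it is high. The lack of overlap is therefore no support by itself. Levels per length were 0.851 ± 0.066 FPKM in C4-2B and 0.050 ± 0.005 FPKM in RC4-2B (SD, n = 3 each). In TMM-scaled CPM the means were 4.81 ± 0.35 and 0.276 ± 0.023, which is 17.4-fold lower in RC4-2B. Its fitted log2 fold change was -4.08 (with a standard error, SE, of 0.28, adjusted p = 0.00048, edgeR), and the gene ranked 8 by p-value among all tested genes and 6 among those lower in RC4-2B. Leaving out each library in turn gave log2 fold changes of -4.14 to -4.02, and DESeq2 gave -4.13 (adjusted p = 3.45e-14). An exact permutation test of the CPM of this gene alone gave p = 0.1 (two-sided), the smallest that 3 against 3 libraries can give. The gene was chosen for its call in these same libraries, so this p-value adds no support.

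GIRK channels are assembled from several subunits, and GIRK1 needs a partner subunit to reach the cell surface. The other GIRK subunits are encoded by KCNJ5, KCNJ6 and KCNJ9, and whether GIRK1 reached the surface in these cells was not tested. KCNJ5 (GIRK4) and KCNJ6 (GIRK2) had 0 counts in all 6 libraries. KCNJ9 (GIRK3) had 21, 24 and 35 counts in C4-2B against 36, 15 and 14 in RC4-2B. Its groups overlapped, and its log2 fold change was -0.24 (SE 0.44, adjusted p = 0.76, edgeR). Per length, KCNJ9 lay below KCNJ3 in C4-2B (0.330 ± 0.088 against 0.851 ± 0.066 FPKM) and above it in RC4-2B (0.284 ± 0.172 against 0.050 ± 0.005 FPKM).

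The pore of every potassium channel holds a short selectivity filter, which strips water from the ion. A script searched the coding sequences of GENCODE release 44 (GRCh38) for its 5 codons, namely threonine or serine, any residue, glycine, then tyrosine, phenylalanine or leucine, then glycine. They were found in all 79 pore-forming genes, in the threonine form in 68 of them, and in none of the 16 auxiliary subunit genes. In 15 genes they occurred more than once, and a second occurrence need not be a filter. The windows below are shown because they identify the pores of the genes whose values the comparison turns on. The 5 codons are in capitals, with 18 coding bases on either side, 5′ to 3′ on the coding strand.
KCNJ3 (chr2:154699184-154699234, plus strand): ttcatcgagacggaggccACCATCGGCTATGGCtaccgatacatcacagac
KCNJ9 (chr1:160084370-160084420, plus strand): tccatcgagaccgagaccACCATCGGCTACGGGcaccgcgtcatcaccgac
KCNJ11 (chr11:17387672-17387722, minus strand): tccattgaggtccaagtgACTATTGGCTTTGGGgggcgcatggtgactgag
KCNQ5 (chr6:73077882-73105301, plus strand, across an exon junction): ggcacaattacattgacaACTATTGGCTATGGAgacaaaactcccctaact
KCNH2 (chr7:150951491-150951541, minus strand): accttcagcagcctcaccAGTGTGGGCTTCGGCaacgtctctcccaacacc
KCNK6 (chr19:38326892-38326942, plus strand): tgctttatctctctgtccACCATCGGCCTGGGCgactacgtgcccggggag
KCNN2 (chr5:114463101-114463151, plus strand): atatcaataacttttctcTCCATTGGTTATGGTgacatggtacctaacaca

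The residue between the glycines of the signature was tyrosine in KCNJ3, KCNJ9, KCNQ5 and KCNN2, phenylalanine in KCNJ11 and KCNH2, and leucine in the KCNK6 window shown, the later of its pair. KCNN2 and KCNH2 have the serine form. In the GIRK1 protein the 5 residues are 143 to 147 of 501, and in the KCNH2 protein of the transcript read they are 624 to 628 of 1159.

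The other inward rectifiers were low or did not differ past the threshold. Of the 16 KCNJ genes, 11 had 3 counts or fewer in every library, among them KCNJ2 and KCNJ4 of the classical strong rectifiers, and all 5 that were tested had a fitted log2 fold change below 0 (median -0.38). KCNJ11 encodes Kir6.2, the pore of ATP-sensitive potassium channels, and was the highest of the class per length, at 2.16 ± 0.09 FPKM in C4-2B and 1.69 ± 0.70 FPKM in RC4-2B. Its counts were 132, 131 and 139 in C4-2B against 116, 53 and 130 in RC4-2B, so the low value was that of RC4-2B replicate 2 alone. The log2 fold change of -0.38 (adjusted p = 0.48, edgeR) was -0.05 without that library. Of its sulfonylurea receptor partners, ABCC8 had 9, 22 and 22 counts in C4-2B against 35, 32 and 30 in RC4-2B (log2 fold change 0.92, standard error 0.36, adjusted p = 0.20, edgeR), with groups that did not overlap, but it passed the filter on low counts through RC4-2B alone. ABCC9 had 0 in all libraries. KCNJ12 (Kir2.2) had 28, 35 and 35 counts in C4-2B against 23, 19 and 19 in RC4-2B, with a fitted log2 difference of -0.63 (adjusted p = 0.23, edgeR). Its coding sequence matches that of KCNJ18 at 1286 of 1299 bases, and KCNJ18 had 0 counts throughout, so reads could have been divided between them in a way that the counts do not show. KCNJ14 (Kir2.4) had 51 to 75 counts in C4-2B and 36 to 55 in RC4-2B, and its groups overlapped.

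**Figure D2:**
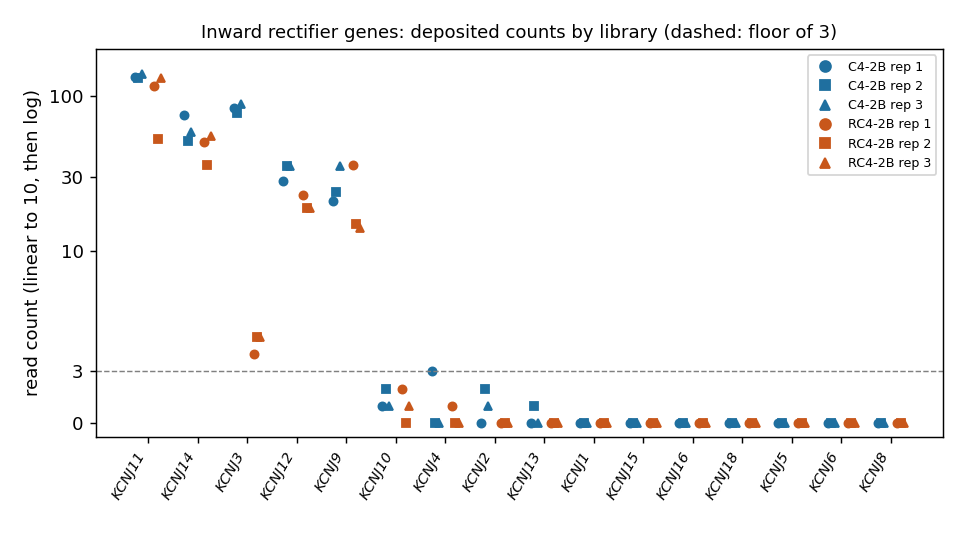
Deposited read counts (vertical axis, linear to 10 and logarithmic above) of the 16 inward rectifier genes, 1 point for each of the 3 C4-2B (blue) and 3 RC4-2B (orange) libraries. The dashed line marks 3 counts. The points of KCNJ3 are at 78 to 89 in C4-2B but at 4 or 5 in RC4-2B, and 11 genes are at or under the dashed line in all libraries.

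The KCNQ genes encode voltage-gated subunits of slow currents, and 4 of their 5 members were tested. Among them KCNQ5 was higher in all 3 RC4-2B libraries and KCNQ1 was lower in all 3, without passing the threshold. KCNQ5 (Kv7.5), a subunit of the neuronal M-current, had 203, 257 and 310 counts in C4-2B against 368, 509 and 399 in RC4-2B, or 1.75 ± 0.34 and 3.04 ± 0.48 FPKM. Its log2 fold change was 0.77 (SE 0.18, adjusted p = 0.070, edgeR). The adjusted p was 0.0091 by DESeq2, 0.0080 without RC4-2B replicate 2 and 0.022 with the GC correction, and with each C4-2B library left out it was 0.15 to 0.31. KCNQ1, which carries the slow delayed rectifier of the heart with KCNE1, had 76, 69 and 75 counts against 38, 19 and 54 (log2 fold change -0.94, adjusted p = 0.18, edgeR), and KCNE1 had at most 1 count in a library. KCNQ3 had 0 in all libraries.

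Of the 8 KCNH genes, 2 were tested, and they lay on opposite sides of 0. KCNH2 encodes hERG, the rapid delayed rectifier of the heart. It had 175, 157 and 150 counts in C4-2B against 70, 82 and 99 in RC4-2B, or 1.42 ± 0.15 and 0.768 ± 0.116 FPKM, with no overlap between the lines. Its log2 fold change was -0.90 (SE 0.19) with an adjusted p of 0.052 by edgeR, just outside the threshold. The adjusted p was 0.0058 by DESeq2 and 0.0078 without RC4-2B replicate 2. With the GC correction the log2 fold change was -0.57 (adjusted p = 0.13), and the GC content of its transcript is 60.9%. KCNH6, which encodes the related channel erg2, had 14, 8 and 9 counts in C4-2B against 31, 23 and 15 in RC4-2B. It was low in both, at 0.128 ± 0.044 and 0.297 ± 0.111 FPKM, and its log2 fold change was 1.19 (SE 0.42, adjusted p = 0.17, edgeR).

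The KCNK class divided into 2 genes that were well measured and overlapped between the lines, and 2 that were low and lay below C4-2B in all RC4-2B libraries. Those 2, KCNK6 and KCNK7, passed the filter on low counts through C4-2B alone, where they are high. Their lack of overlap is therefore no support by itself. KCNK1 (TWIK-1) had 366, 450 and 397 counts in C4-2B against 369, 525 and 367 in RC4-2B, at 5.76 ± 0.45 and 6.26 ± 1.27 FPKM. KCNK5 (TASK-2), an acid-sensitive leak channel, had 280, 236 and 230 counts against 280, 195 and 308, at 3.43 ± 0.47 and 3.76 ± 0.87 FPKM. Neither gene differed by more than the spread between libraries (log2 fold changes 0.09 and 0.11, adjusted p = 0.74 and 0.76, edgeR), and the sign of both depended on the libraries kept. KCNK6 (TWIK-2) had 27, 23 and 21 counts in C4-2B against 9, 7 and 8 in RC4-2B. Its log2 fold change was -1.51 (SE 0.34, adjusted p = 0.063, edgeR), with an adjusted p of 0.046 without RC4-2B replicate 2 and 0.034 with the GC correction. It was 0.060 with that correction and the replicate block, 0.073 by DESeq2 and 0.20 to 0.31 with each C4-2B library left out. KCNK7, a relative that is not known to give a current of its own, had 10, 11 and 14 counts against 3, 2 and 6 (log2 fold change -1.60, adjusted p = 0.13, edgeR). The other 11 KCNK genes were not tested, and 10 of them were at or under 3 counts in every library. KCNK13 had 5, 1 and 5 counts in C4-2B against 7, 8 and 10 in RC4-2B.

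KCNN2, which encodes the small-conductance calcium-activated channel SK2, was the highest potassium channel gene per length in both lines. It took 38.6% to 44.3% of the summed FPKM of all 95 genes in a library, a share that rests on the gene lengths in the files. Its counts were 3212, 3473 and 3447 in C4-2B against 2928, 2788 and 2605 in RC4-2B, or 26.9 ± 0.4 and 23.2 ± 2.0 FPKM. The groups did not overlap, the log2 fold change was -0.24 (SE 0.11) and the adjusted p was 0.24 (edgeR), so the difference did not pass the test. KCNN1 (SK1) had 12, 12 and 20 counts against 10, 5 and 6. KCNN3 reached at most 5 counts, and KCNN4, which encodes the intermediate-conductance channel, had at most 1 count in a library.

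KCNMA1, the pore of the large-conductance calcium-activated (BK) channel, had 461, 449 and 770 counts in C4-2B against 540, 686 and 706 in RC4-2B. The 3 C4-2B libraries spanned the range of RC4-2B, and the log2 fold change was 0.24 (SE 0.21, adjusted p = 0.50, edgeR). The length that the files give for this gene is 35644 bases, which puts it at only 0.812 ± 0.259 and 0.975 ± 0.112 FPKM, while its CPM of 32.3 ± 10.1 and 38.1 ± 3.9 was among the highest of the channel genes. BK channels in secretory cells take up the auxiliary subunit LRRC26, which lets them open at rest. LRRC26 had 890, 787 and 914 counts in C4-2B against 418, 129 and 526 in RC4-2B, with no overlap, a log2 fold change of -1.22 (SE 0.42) and an adjusted p of 0.16 (edgeR). Without RC4-2B replicate 2 the log2 fold change was -0.81 (adjusted p = 0.00035), and with the GC correction it was -0.51 (adjusted p = 0.023). The GC content of its transcript is 74.7%. The BK beta subunit genes KCNMB1 and KCNMB2 had at most 1 count, and KCNMB3 had 16 to 24 counts in C4-2B and 12 to 17 in RC4-2B.

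The classical voltage-gated alpha subunits were sparse in both lines. Of 17 genes of the KCNA, KCNB, KCNC and KCND groups, 10 were at or under 3 counts in every library and 3 were tested. No KCNA gene was tested, and KCNA7, the highest of them, had 3, 1 and 9 counts against 0, 1 and 0. Of the 10 modifier genes 3 were tested. KCNS3 (Kv9.3), a modifier that forms no channel alone, had 185, 184 and 152 counts in C4-2B against 190, 267 and 183 in RC4-2B (log2 fold change 0.33, adjusted p = 0.32, edgeR).

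Of the 16 auxiliary subunit genes, 7 were tested and 6 of the 7 had a fitted log2 fold change below 0 (median -0.20). KCNAB2, a cytoplasmic beta subunit related to aldo-keto reductases, was the highest, with 528, 534 and 629 counts in C4-2B against 541, 309 and 508 in RC4-2B. RC4-2B replicate 2 was again the low library, and the log2 fold change of -0.26 (adjusted p = 0.49, edgeR) was 0.05 with the GC correction. KCNIP4, a calcium-binding partner of the Kv4 subunits, had 18, 17 and 21 counts against 23, 30 and 24. Its log2 fold change was 0.49 (adjusted p = 0.32, edgeR), with groups that did not overlap. The 5 KCNE genes did not pass the filter, with at most 5 counts (KCNE2).

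**Figure D3:**
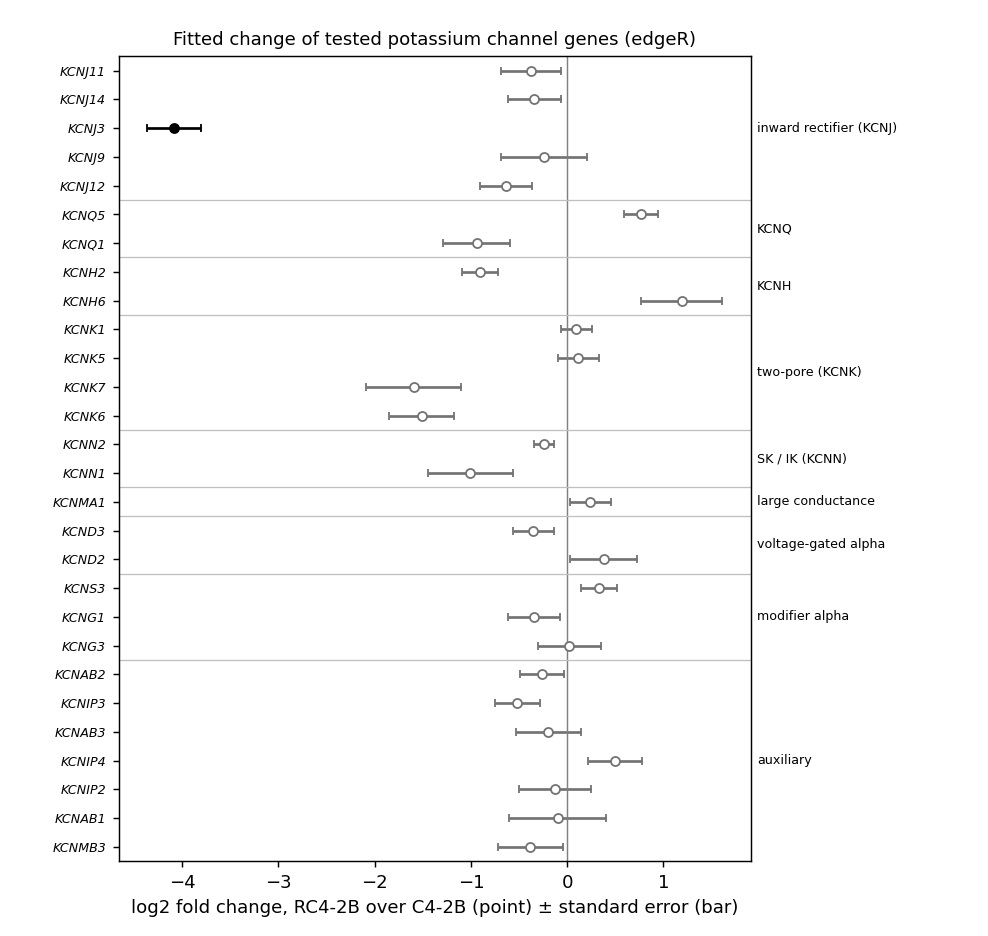
Fitted log2 fold change of RC4-2B over C4-2B (point) with its standard error (bar) for 28 of the 31 tested potassium channel genes, grouped by subfamily. The filled point is KCNJ3 at -4.08, the one gene past an adjusted p-value of 0.05, and 19 of the 28 points lie below 0.

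More of the tested channel genes lay below 0 than above. The fitted log2 fold change was below 0 for 21 of 31 (67.7%), against 49.3% of all tested genes, and the median was -0.26 against 0.0063. Groups did not overlap for 11 genes that were lower and 3 that were higher in RC4-2B (35.5% and 9.68%), against 17.1% and 17.0% of all genes. These counts take in the 5 genes that passed the filter through C4-2B alone. The shift was not even over the libraries. Relative to the C4-2B mean, the median channel gene stood at -0.09, -0.61 and -0.24 (log2) in RC4-2B replicates 1, 2 and 3, and at -0.03, -0.08 and 0.08 in C4-2B. The median over channel genes was -0.14 without RC4-2B replicate 2 and -0.12 with the GC correction. The number of tested channel genes below 0 was 21 of 31 in each of these fits. No test of the list was made.

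**Figure D4:**
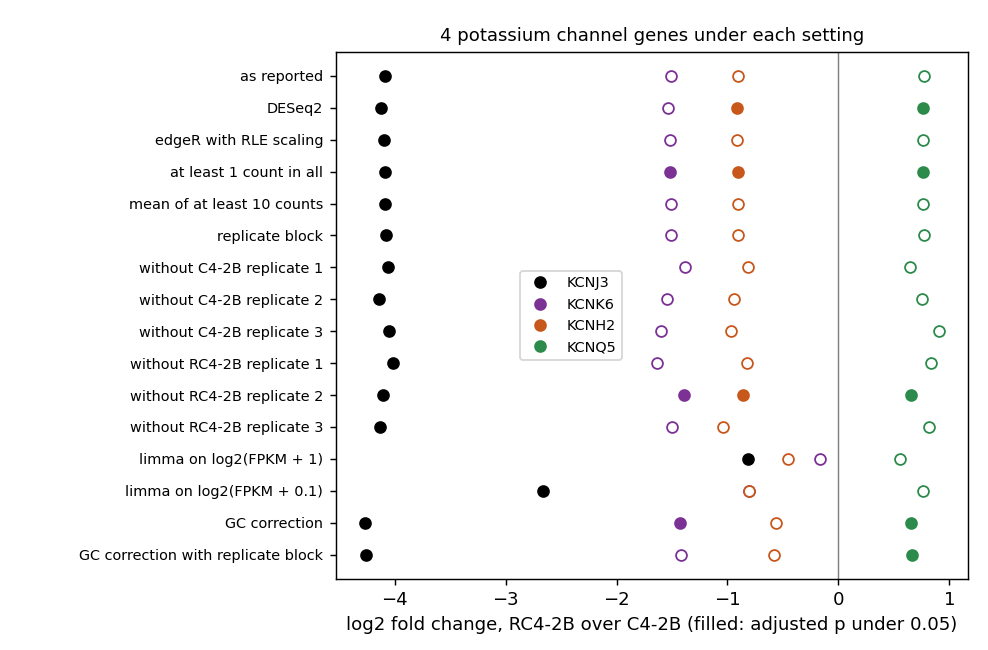
Log2 fold change of RC4-2B over C4-2B (horizontal axis) for 4 potassium channel genes under 16 settings, with filled points for an adjusted p-value under 0.05. KCNJ3 is filled in every setting, and lies nearer 0 (-0.82 and -2.67) in the limma fits because a constant was added to its low FPKM. The other 3 genes keep their side of 0 and are filled in a few settings only.

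KCNH2, KCNK6 and KCNQ5 were the channel genes nearest the threshold besides KCNJ3, and their calls turned on the libraries, test and filter used. With a filter of at least 1 count in all, 604 of 29109 genes were called higher and 646 lower. KCNQ5 was then called higher, and KCNJ3, KCNH2 and KCNK6 were among those called lower. Without RC4-2B replicate 2, where 6.50% of all genes were called higher and 6.02% lower, KCNQ5 was called higher and KCNJ3, KCNH2 and KCNK6 were among those called lower. With the GC correction, where 4.36% were called higher and 3.25% lower, KCNQ5 was called higher and KCNJ3 and KCNK6 lower. The adjusted p of KCNH2 was 0.17 to 0.26 when one of the C4-2B libraries was left out, and its log2 fold change stayed between -0.97 and -0.81.

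Genes that work with potassium channels or share the handling of ions were read from the same fit. One of the 27 tested genes on the 6 lists, HCN2, was called lower in RC4-2B and none higher, against 0.903% lower and 1.08% higher over all tested genes, so the count is no result about these lists. HCN2 encodes a hyperpolarization-activated channel that passes sodium and potassium. It had 196, 205 and 234 counts in C4-2B against 80, 107 and 116 in RC4-2B, or 12.2 ± 1.0 and 5.97 ± 0.91 CPM, with a log2 fold change of -1.03 (SE 0.18, adjusted p = 0.028, edgeR). The call was lost without each of the C4-2B libraries (adjusted p = 0.13 to 0.15) and without RC4-2B replicate 3 (adjusted p = 0.076), although the log2 fold change stayed between -1.14 and -0.97. With the GC correction the log2 fold change itself was smaller, at -0.18 (adjusted p = 0.80). Its transcript has a GC content of 70.8%. HCN3, the other tested member of that list, had 57, 58 and 66 counts against 49, 20 and 55.

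None of the 4 tested channel partners, 3 sodium pump genes, 6 cation chloride cotransporters, 3 voltage-gated sodium channel genes and 9 voltage-gated calcium channel genes passed the threshold. SLC12A2, the cotransporter that carries potassium into cells with sodium and chloride, had 798, 1067 and 1051 counts against 1097, 1490 and 1401 (log2 fold change 0.49, adjusted p = 0.12, edgeR). Without RC4-2B replicate 2 it was called higher (log2 fold change 0.43, adjusted p = 0.021, edgeR). CACNA1G, a low-voltage-activated calcium channel, had 2, 2 and 6 counts against 16, 11 and 25 (log2 fold change 2.38, standard error 0.56, adjusted p = 0.073, edgeR). It passed the filter on low counts through RC4-2B alone, where it is high, so the lack of overlap is no support by itself. It was called higher by DESeq2 (adjusted p = 0.039), without RC4-2B replicate 2 (0.0065) and with the GC correction (0.013).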

How the data were processed

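Total RNA of 3 C4-2B and 3 RC4-2B cultures, labelled by the authors as biological replicates, was sequenced. Per the methods, STAR and GRCh38 were used for mapping. The authors deposited whole read counts per gene, without normalization, and FPKM values. The FPKM are the same counts per gene length and per a total for each library. That total was 17878222 to 19817304, in each library larger than its summed counts. The counting program, strand and annotation release are not given in the sources used here.

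The tests ran in edgeR 4.0.16 under R 4.3.3 (TMM, filterByExpr with a minimum of 10 counts, glmQLFit and glmQLFTest, two-sided, Benjamini-Hochberg over all 15054 genes tested, threshold 0.05). The fit was tested on simulated data. Each SE was taken from the fitted log2 value and its F statistic, as the size of the former over the root of the latter. CPM are TMM-scaled, and FPKM served to compare levels between genes. The order of genes by FPKM depends on the gene lengths in the files, and a longer length gives a lower FPKM. Means are given ± SD. Alternatives were DESeq2 1.42.0, RLE scaling, other filters on low counts, a replicate block, each library left out, limma 3.58.1 on log2(FPKM + 1) and log2(FPKM + 0.1), a prior count of 2 and a GC correction (lowess of log2 CPM deviation on transcript GC, known for 99.6% of tested genes), which also removes any mean GC trend between the lines. All 95 genes matched GENCODE release 44 by Ensembl identifier. Gene coordinates are those of the files.

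Genes named were KCNJ3, the 5 smallest p-values in each direction, the 10 highest mean FPKM, the highest of each subfamily, and genes of the other lists past the threshold. Partners, further members and GC-rich or low genes given beside them were chosen after their values were seen. No channel gene was limited to 3 counts throughout one line while exceeding 3 throughout the other. The genes, lists and alternatives were chosen with earlier results of these data known. The labels give no batch or date. Some genes that this rule covers are not reported here or drawn in the plots, and they remain in the counts.

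Within each line all library pairs differed by more than sampling noise (chi-square per gene 3.38 to 65.4), so none was a copy. Depth was 15707134 to 18052517 counts per library.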

Additional observations from a re-analysis of the deposited data

How the results depend on the processing

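KCNJ3 stayed lower in RC4-2B and past the threshold under all alternatives run. Over 16 named channel genes, 234 other values kept their direction and their side of the threshold, 13 newly passed it and 6 changed sign. The sign changes were KCNAB2 at 0.046 with the GC correction and 0.047 with that correction and the replicate block, KCNK1 at -0.045 and -0.048 under the same settings and at -0.063 to 0.18 with each library left out, and KCNK5 at -0.011 to 0.31 with each library left out. Channel genes called higher numbered 1 by DESeq2, with a filter of at least 1 count in all, with the GC correction and with it and the block, and 0 to 1 with each library left out. Those called lower numbered 2 by DESeq2, 4 with the filter of at least 1 count, 2 with the GC correction and 1 to 4 with each library left out, where RC4-2B replicate 2 gave the 4. Of the partner and transport genes, those called higher numbered 2 by DESeq2, with the filter of at least 1 count, with the GC correction and with it and the block, and 0 to 3 with each library left out, while those called lower numbered 2 with the filter of at least 1 count, 0 with the block and 0 to 2 with each library left out. The cause of these changes was not tested. Over all genes, 162 were called higher and 136 lower in the fit reported, 500 and 402 by DESeq2, 604 and 646 with the filter of at least 1 count, 657 and 490 with the GC correction, 55 and 74 with the block, 1000 and 925 without RC4-2B replicate 2, and 13 and 31 without C4-2B replicate 1.

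Whether the replicate numbers pair the libraries was not settled. Deviations of same-numbered libraries from their group means correlated at 0.14, 0.08 and -0.01. RC4-2B replicates 1 and 2 correlated best with their own numbers, and RC4-2B replicate 3 did not. Deviations from a mean of 3 libraries depend on one another, so this check can neither show nor exclude a pairing. With the replicate block, KCNJ3 had a log2 fold change of -4.08 (adjusted p = 0.0038, edgeR) and the call of HCN2 was lost (adjusted p = 0.057). Changes in genes under about 0.170 to 0.188 CPM are not detectable at this depth, which covers the 51 channel genes at or under 3 counts.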

Other observations

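These genes were chosen after their values were seen. KCNQ5-IT1, a sense transcript inside an intron of KCNQ5 on the same strand, had 9, 13 and 10 counts in C4-2B against 20, 28 and 26 in RC4-2B (log2 fold change 1.24, SE 0.32, adjusted p = 0.087, edgeR), with no overlap, and passed the filter on low counts through RC4-2B alone. KCNQ1OT1, the noncoding RNA transcribed from within KCNQ1 on the opposite strand, had 34, 35 and 42 counts against 35, 36 and 27 (log2 fold change -0.14), while KCNQ1 itself was lower in all 3 RC4-2B libraries. KCNMB2-AS1 had 1 count in each C4-2B library and 10, 4 and 7 in RC4-2B, and was not tested. KCNRG, a cytoplasmic regulator that holds back voltage-gated subunits, had 16, 14 and 11 counts against 20, 16 and 10. Among 18 genes within 1 Mb of KCNJ3, one other gene had more than 3 counts in any library. This was GALNT13, a glycosyltransferase gene, with 15, 11 and 5 counts in C4-2B against 1, 0 and 0 in RC4-2B, and it was too low to be tested.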
